A study of Homo sapiens with 16 samples.

Results

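The genes LMNA, LMNB1, LMNB2, LBR, TMPO, EMD, SUN1, SUN2, HMGB1 and HMGB2 were followed across the 4 treatment groups. They were taken by name as the nuclear lamina, its membrane partners and a pair of high-mobility-group proteins that are widely used as markers of senescence. The rule used no measured value, but the 10 were proposed with earlier results of these data known, so they were not chosen blind. Symbols were matched to the Ensembl identifiers of the count table through GENCODE. All 10 were found among its 60649 genes, and all 10 were among the 19103 genes that passed the filter on low counts and were tested.

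Poly(A)-enriched RNA was sequenced from ASC52telo, 1 line of human adipose-derived mesenchymal stem cells (MSCs) immortalized with telomerase. In the young control group, MmC-/GDF11-, the cells received neither agent. The MmC-/GDF11+ group received growth differentiation factor 11 (GDF11, a cytokine of the TGF-beta family) at 10 ng/mL over 10 days. The MmC+/GDF11- group was made senescent by 1.5 µg/mL mitomycin C (MmC, which alkylates DNA) for 18 h and was then kept for 10 days, and MmC+/GDF11+ received MmC and afterwards GDF11 at the same doses. Each group had 4 biological replicates. All 16 libraries share the line and its telomerase, and no source used here ties a replicate to a separate donor, so p-values measure the spread between these cultures.

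The lamina is a meshwork of A-type lamins (from LMNA) and B-type lamins (from LMNB1 and LMNB2) under the inner nuclear membrane, where it anchors heterochromatin. LBR, emerin and the membrane-bound forms of TMPO tie the membrane to lamins and chromatin, and SUN1 and SUN2 join the lamina to the cytoskeleton. HMGB1 and HMGB2 bend DNA within chromatin, and loss of lamin B1 and of nuclear HMGB1 is used to recognise senescent cells.

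Total counts lay between 71275337 and 144204979 per library. The 5 MSC markers NT5E, THY1, ENG, CD44 and ITGB1 summed to between 4734 and 6426 CPM (counts scaled to library size by the TMM method and expressed on the usual CPM scale) in every library. The 8 markers of blood, endothelium, epithelium and fat cells summed to between 8.81 and 12.4 CPM in MmC- and between 11.8 and 23.5 CPM in MmC+ libraries. Of these 8, 5 passed the filter. Without GDF11 PECAM1 (log2 fold change 1.27; edgeR adjusted p = 0.00966) and CD14 (0.79; edgeR adjusted p = 0.0299) were higher after MmC, the endothelial CDH5 was lower (-1.51; edgeR adjusted p = 4.48e-06), and PTPRC (0.63) and the fat cell gene PLIN1 (1.12) were not called. With GDF11 4 were called higher, PLIN1 among them at no more than 0.32 CPM in any library, and CDH5 lower, and the median of ADIPOQ was 0. The part of these cells in the results was not tested. Of 7 senescence genes 6 were called higher after MmC, without and with GDF11 (background 22.9% and 23.4% of all genes called higher), and CDKN2A was not called (log2 fold change 0.23 and 0.043; edgeR adjusted p = 0.516 and 0.911). CDKN1A, the p53-induced inhibitor of cyclin-dependent kinases, rose from 226 ± 70.6 CPM (SD, n = 4) in young to 1507 ± 395 CPM in senescent MSCs without GDF11 (edgeR adjusted p = 3.89e-06). In the 4 libraries numbered 1, CDKN1A was above the other replicates of its group in every group, and MKI67, TOP2A and CDK1 were below the others in 3 of the 4 groups. IL6, another of the 7 senescence genes, was above the other replicates in both MmC- groups. In the MmC+ groups it was below them, at 146 CPM without GDF11 (others 741 to 905) and 134 CPM with it (others 663 to 911). Results are therefore also given without these 4 libraries. The study's text mentions batch effects without naming the libraries they touch.

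Regulatory sequence was looked at for the genes, since they fell together after MmC as described further on. RefSeq windows on GRCh38.p14, from 250 bases before a transcript start to 50 after it, were found for 8 of the 10 genes, with 16 windows in all, and not for SUN1 and HMGB2. They were searched on both strands for the CCAAT box (CCAAT), for the cell cycle homology region (TTTGAA, or TTCGAA) and for an E2F core, 3 motifs known from promoters of cell cycle genes. The E2F core was any of the words TTCCCGC and TTCGCGC, as well as TTGCCGC and also TTGGCGC. The motifs do not overlap each other in the windows shown. A CCAAT box occurred in 6 genes, in windows 1 and 2 of both TMPO and HMGB1 and in 1 window of each of the others. Of all 35116 windows 34.6% held one. The cell cycle homology region occurred in 1 window each of 3 genes (LMNB2, SUN2 and HMGB1), out of the 16 windows of these genes in all, against 16.4% of all windows. The E2F core occurred in 1 gene (LMNA), against 13.0%, and no gene held all 3 kinds in 1 window. A gene with several windows has more chances of a match than 1 window. The counts of genes are thus in another unit than the shares of windows and show no excess of a motif. These matches are letters, not measured binding. The 250 bases before the start are shown for a lamin of each type, a lamin partner and HMGB1, so that the motifs can be read in place, 5′ to 3′ on the strand of the gene. Capitals mark the motifs.
LMNA, chr1:156082323-156082572, plus strand, a CCAAT box at position -146 and an E2F core at -22 from the start: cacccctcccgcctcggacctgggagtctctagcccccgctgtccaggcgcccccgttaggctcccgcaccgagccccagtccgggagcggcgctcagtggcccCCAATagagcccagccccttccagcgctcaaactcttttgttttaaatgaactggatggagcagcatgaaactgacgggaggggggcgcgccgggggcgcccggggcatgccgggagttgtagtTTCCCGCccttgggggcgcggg
LMNB2, chr19:2456960-2457209, minus strand, a cell cycle homology region at -246: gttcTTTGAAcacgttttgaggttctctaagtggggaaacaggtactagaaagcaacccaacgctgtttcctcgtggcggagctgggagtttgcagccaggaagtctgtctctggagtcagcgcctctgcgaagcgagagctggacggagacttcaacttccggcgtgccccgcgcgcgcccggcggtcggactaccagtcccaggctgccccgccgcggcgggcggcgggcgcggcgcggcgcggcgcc
TMPO, chr12:98515323-98515572, plus strand, CCAAT boxes at -47 and -15: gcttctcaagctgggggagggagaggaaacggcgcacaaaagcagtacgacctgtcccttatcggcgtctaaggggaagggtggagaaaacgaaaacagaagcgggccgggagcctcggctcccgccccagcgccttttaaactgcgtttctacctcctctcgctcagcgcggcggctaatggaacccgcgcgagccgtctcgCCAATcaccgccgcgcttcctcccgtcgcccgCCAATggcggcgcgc
HMGB1, chr13:30465937-30466186, minus strand, CCAAT boxes at -103, -59 and -28: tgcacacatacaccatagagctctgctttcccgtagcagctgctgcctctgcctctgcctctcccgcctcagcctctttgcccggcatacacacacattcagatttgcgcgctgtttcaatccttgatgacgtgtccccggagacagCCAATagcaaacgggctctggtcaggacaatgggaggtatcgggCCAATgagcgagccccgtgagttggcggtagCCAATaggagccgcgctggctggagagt
More than 1 CCAAT box in 1 window was found in TMPO and HMGB1, and also in SUN2 (-101 and -57, beside a cell cycle homology region at -111) and EMD (-224 and -115), whose windows are not shown. In LMNB1 a single CCAAT box stood on the other strand at -138 of its second window, and the window of LBR held none of the 3 motifs.

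The first comparison asked how MmC changed these transcripts in cells that were not given GDF11. All 10 genes were lower in MmC+/GDF11- than in MmC-/GDF11- (edgeR's quasi-likelihood test, Benjamini-Hochberg adjusted p under 0.05 over all genes tested), where 22.4% of the 19103 genes were called lower. The values of the 4 MmC+ libraries lay below those of the 4 MmC- libraries for all 10 genes, where 18.2% of all genes showed this. The median log2 fold change of the 10 genes was -1.29, against -0.01 over all genes. With GDF11 in both arms, all 10 genes were again lower in MmC+ (background 23.3% called lower, and 21.2% not overlapping and lower), with a median of -1.28. These are shares of the RNA in a library of pooled cells, in which fewer cells that carry a transcript and less of it per cell cannot be told apart.

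**Figure D1:**
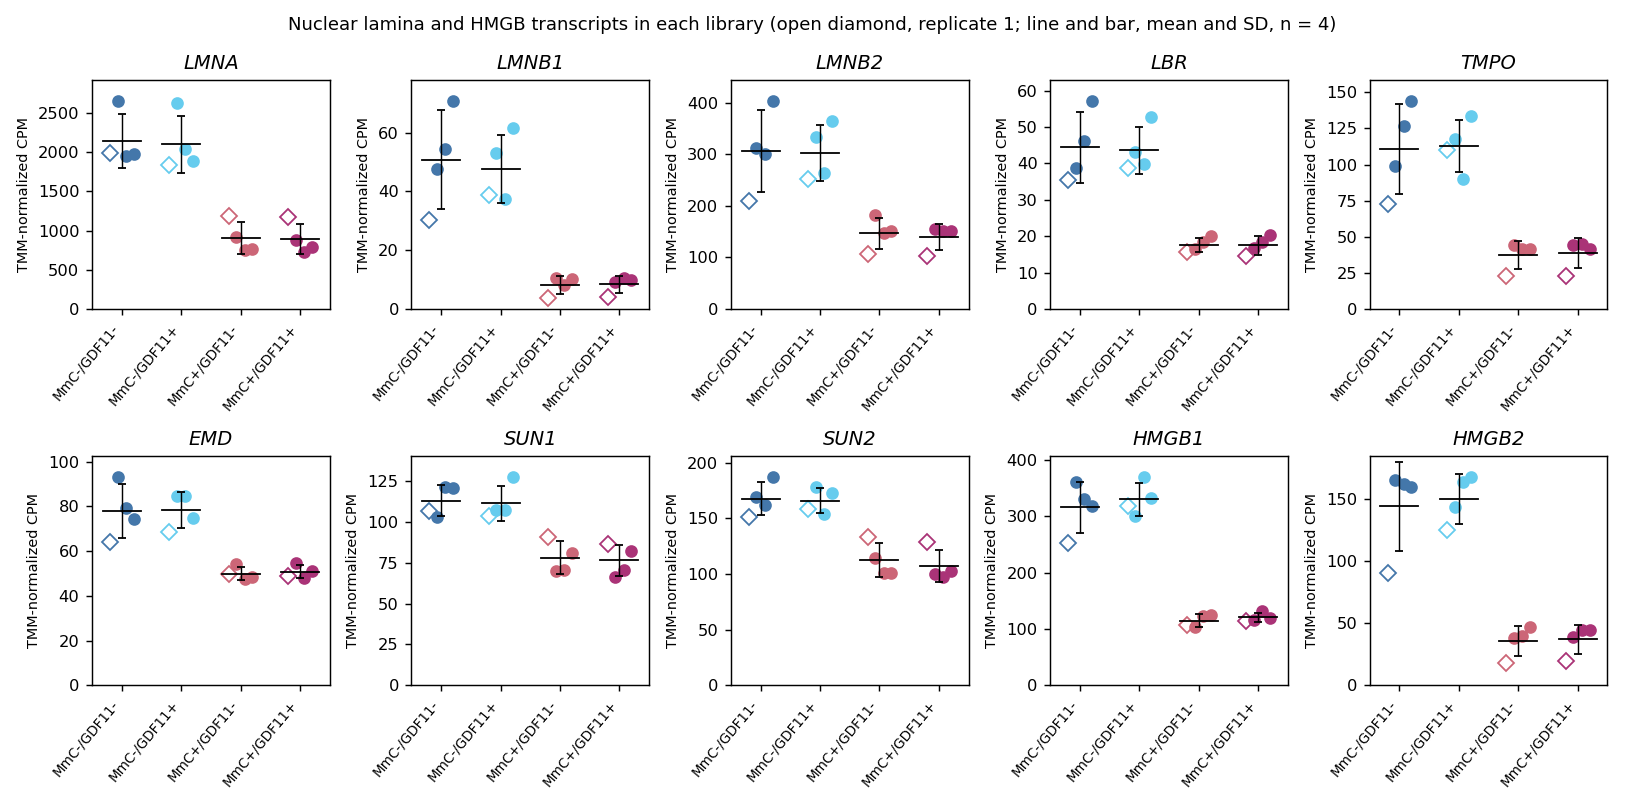
TMM-normalized CPM (vertical axes, from 0) of the 10 genes in the 16 libraries, by group (horizontal axes). Points are libraries, with replicate 1 as an open diamond, and lines with bars give the mean and SD (n = 4). In every panel the MmC+ libraries lie below the MmC- libraries, while libraries with and without GDF11 overlap. In LMNB1, TMPO, LMNB2, HMGB2 and, by a smaller gap, LBR, replicate 1 is the lowest library of each MmC+ group.

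LMNB1 encodes lamin B1 (ENSG00000113368.12, chromosome 5 of hg38 from 126776623 to 126837020, plus strand) and fell the most of the 10. In MmC-/GDF11- its level was 30.4, 47.6, 54.3 and 70.9 CPM in replicates 1 to 4. In MmC+/GDF11- it was 3.73, 10.6, 8.28 and 10.1 CPM. The lowest young library was thus above the highest senescent one by more than the whole senescent range, and replicate 1 was the lowest in both groups. The log2 fold change was -2.64 ± 0.360 (SE; 95% interval -3.40 to -1.87; edgeR adjusted p = 4.04e-05), which is 6.22-fold lower. Of the 19103 genes, 86 (0.450%) had a lower log2 fold change. With GDF11 the levels were 38.8, 53.0, 37.5 and 61.5 CPM without MmC and 3.94, 9.24, 10.4 and 9.75 CPM after MmC, a log2 fold change of -2.51 ± 0.358 (edgeR adjusted p = 5.71e-05). Without the 4 libraries numbered 1 the values were -2.58 and -2.37, so the fall did not rest on these low libraries.

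LMNB2 encodes the other B-type lamin, lamin B2 (ENSG00000176619.13, chromosome 19 from 2427638 to 2456959, minus strand). It had 210 (replicate 1), 312, 301 and 404 CPM in the young controls and 107, 181, 147 and 151 CPM after MmC. Its log2 fold change of -1.07 ± 0.202 (edgeR adjusted p = 0.000525) was smaller than that of LMNB1, and with GDF11 it was -1.12 ± 0.202. Without the libraries numbered 1 the values were -1.09 and -1.07. The ratio of LMNB2 to LMNB1, each in CPM per kilobase of exon, shows the difference between the B-type lamins within each library. It lay between 3.73 and 4.64 in MmC-/GDF11- and between 10.0 and 19.3 in MmC+/GDF11-, with no overlap, and between 3.99 and 4.72 and between 9.77 and 17.4 in the groups with GDF11. Replicate 1 had the highest ratio of both MmC+ groups. The other libraries lay between 10.0 and 11.9 in MmC+/GDF11- and between 9.77 and 11.3 in MmC+/GDF11+.

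LMNA, the source of lamins A and C (ENSG00000160789.24, chromosome 1 from 156082573 to 156140081, plus strand), was the most abundant of the 10 transcripts per kilobase in every group. It had 1991, 2660.0, 1949 and 1972 CPM in the young controls and 1192, 919.9, 753 and 763 CPM after MmC. Here replicate 1 was the highest of the senescent libraries, the reverse of the B-type lamins. The log2 fold change was -1.24 ± 0.186 without GDF11 (edgeR adjusted p = 7.01e-05) and -1.23 ± 0.186 with it. Without the libraries numbered 1 it was -1.43 and -1.45.

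The make-up of the lamin transcripts was therefore compared per kilobase of exon. LMNB1 made up 4.20% ± 1.36 (SD, n = 4) of the summed lamin level in MmC-/GDF11- and 1.67% ± 0.719 in MmC+/GDF11-, with ranges of 2.87 to 5.80 and 0.614 to 2.24. LMNA made up 78.8% ± 5.35 and 78.6% ± 6.00, and LMNB2 17.0% ± 4.01 and 19.8% ± 5.29, ranges that overlapped. With GDF11 the share of LMNB1 was 4.03% ± 0.907 without and 1.74% ± 0.753 after MmC. These shares were computed after the levels had been seen and carry no test. Their size depends on the length used, that of all annotated exons of a gene together.

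Among the membrane partners of the lamina, LBR, the lamin B receptor, which is also a sterol reductase (ENSG00000143815.15, chromosome 1 from 225401502 to 225428925, minus strand), had 35.4, 38.8, 46.1 and 57.3 CPM in the young controls and 15.7, 16.4, 18.3 and 20.02 CPM after MmC. The senescent libraries kept close together, and the log2 fold change was -1.33 ± 0.152 (edgeR adjusted p = 5.43e-06). TMPO encodes the lamina-associated polypeptides 2 (ENSG00000120802.14, chromosome 12 from 98515579 to 98550351, plus strand) and had 72.9, 99.3, 127 and 144 CPM in the young controls and 23.0, 44.2, 41.5 and 41.7 CPM after MmC. Replicate 1 was the lowest in both groups, and the log2 fold change was -1.56 ± 0.254 (edgeR adjusted p = 0.000178). EMD encodes emerin, a LEM-domain protein (ENSG00000102119.12, chromosome X from 154379273 to 154381574, plus strand). It ranged from 64.0 to 93.1 CPM in the young controls and from 47.4 to 54.1 CPM after MmC, a log2 fold change of -0.64 ± 0.105 (edgeR adjusted p = 0.000157). With GDF11 the log2 fold changes of the 3 genes were -1.32 ± 0.152, -1.55 ± 0.254 and -0.62 ± 0.105. Without the libraries numbered 1 they were -1.38, -1.54 and -0.72 without GDF11 and -1.29, -1.38 and -0.66 with it. A part of the TMPO exons, 7.60%, lies opposite TMPO-AS1, which went from 6.61 ± 2.19 to 2.22 ± 0.967 CPM.

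SUN1 and SUN2, whose proteins hold nesprins in the nuclear envelope, were lowered least of the 10 with EMD. SUN1 (ENSG00000164828.18, chromosome 7 from 816615 to 896435, plus strand) had 107, 103, 121 and 121 CPM in the young controls and 90.9, 70.2, 70.4 and 81.0 CPM after MmC. SUN2 (ENSG00000100242.15, chromosome 22 from 38733290 to 38794143, minus strand) had 152, 169, 162 and 187 CPM in the young controls and 133, 114, 101 and 101 CPM after MmC. In both genes replicate 1 was the highest senescent library, and the gap to the lowest young library was small. The log2 fold change of SUN1 was -0.53 ± 0.111 (95% interval -0.77 to -0.30; edgeR adjusted p = 0.00113) and that of SUN2 -0.58 ± 0.112 (95% interval -0.81 to -0.34; edgeR adjusted p = 0.000624). Without the libraries numbered 1 the values were -0.64 and -0.71. With GDF11 the log2 fold changes were -0.54 ± 0.111 and -0.63 ± 0.112. SUN1 shares 15.5% of its exonic bases with GET4 on the same strand, which had group means between 2.30 and 2.87 CPM. SUN2 shares 13.6% with GTPBP1 on the other strand, whose mean went from 49.2 to 63.9 CPM. The libraries were made with a directional kit, but the strand setting of the counting is not given in the sources used here.

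Of the chromatin proteins, HMGB2 (ENSG00000164104.12, chromosome 4 from 173331376 to 173334432, minus strand) had the larger fall. It had 90.5, 165, 162 and 159.7 CPM in the young controls and 18.3, 37.9, 39.7 and 47.3 CPM after MmC. Replicate 1 was far below the other 3 in both groups, at 0.557 and 0.440 times their mean. The log2 fold change was -2.01 ± 0.298 (95% interval -2.65 to -1.38; edgeR adjusted p = 8.25e-05) without GDF11 and -2.02 ± 0.298 with it, and 208 genes (1.09%) had a lower value without GDF11. Without the libraries numbered 1 it was -1.96 and -1.89.

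HMGB1 (ENSG00000189403.15, chromosome 13 from 30456704 to 30617597, minus strand) is a chromatin protein that also acts as a danger signal when released from cells. It had 254, 362, 331 and 319 CPM in the young controls and 106, 104, 124 and 126 CPM after MmC. The senescent libraries lay close together and replicate 1 did not stand apart among them. The log2 fold change was -1.46 ± 0.112 (95% interval -1.70 to -1.22; edgeR adjusted p = 1.40e-07) without GDF11 and -1.45 ± 0.112 with it, which gave HMGB1 the smallest adjusted p of the 10 in both comparisons. Without the libraries numbered 1 the log2 fold change of HMGB1 was -1.52 and -1.44. Of its exonic bases 28.3% recur elsewhere in the genome in stretches of at least 100 bases at 98% identity or more, so its counts are uncertain. Its 48 named copies held between 10.1% and 12.1% of the combined counts, with group means of 11.0%, 11.2%, 10.7% and 10.5% in young MSCs without and with GDF11 and in senescent MSCs without and with it. The split between gene and copies was thus alike in the groups. For the other 9 genes no such stretch was found.

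Per kilobase of exon the order of the genes changed after MmC. The length was that of all annotated exons of a gene together, not of the transcripts expressed, and the order between genes depends on it. In CPM, HMGB1 (316 ± 45.6) was above HMGB2 (144 ± 36.1) in MmC-/GDF11-. In MmC-/GDF11- LMNA (263 ± 42.4 CPM per kilobase) stood apart from HMGB2 (60.2 ± 15.0) and LMNB2 (56.8 ± 14.7), followed by HMGB1 (41.1 ± 5.92) and EMD (38.95 ± 6.06), whose ranges overlapped from each to the next. SUN2 (20.1 ± 1.79) was below these without overlap. LMNB1 (14.0 ± 4.61), TMPO (13.0 ± 3.68), SUN1 (9.53 ± 0.795) and LBR (7.78 ± 1.69) came last, again with overlap from each to the next. In MmC+/GDF11- LMNA (111 ± 25.2) was still first, LMNB2 (27.1 ± 5.67) and EMD (24.99 ± 1.49) came next, and HMGB1 (14.94 ± 1.47), HMGB2 (14.92 ± 5.15) and SUN2 (13.5 ± 1.82) overlapped. SUN1 had 6.59 ± 0.836, TMPO 4.43 ± 1.15 and LBR 3.09 ± 0.339 CPM per kilobase. LMNB1 was last at 2.25 ± 0.860 in MmC+/GDF11- and at 2.29 ± 0.817 in MmC+/GDF11+, with a range that overlapped that of LBR in both groups.

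The second question was whether GDF11 changed the same transcripts, in young or in senescent MSCs. None of the 10 genes was called in young or in senescent MSCs or for the interaction of MmC and GDF11 (background 0% called in each). In edgeR's test 0 of 19103 genes passed in any of the 3 comparisons, while 226 (1.18%), 96 (0.503%) and 172 (0.9%) genes had an unadjusted p under 0.05, none of them among the 10. Without any effect a share of about 0.05 of the genes would be reached, so this fit looked conservative for GDF11. Its lack of calls does not show that GDF11 had no effect. DESeq2 called 1 gene in young MSCs and limma-voom 0, and neither tool called a gene in the other 2 comparisons. edgeR's fit with the replicate number as a block also called 0 genes in senescent MSCs and for the interaction. Same-numbered senescent libraries shared deviations over all tested genes (correlations of 0.448 to 0.818), which the fit without a block does not model. Their part in the low share of small p-values was not tested. In young MSCs the log2 fold changes of the 10 genes lay between -0.09 (LMNB1) and 0.06 (HMGB1), and in senescent MSCs between -0.07 (SUN2) and 0.07 (HMGB1). The groups overlapped for each of the 10, as they did for all but 0.89% of genes in young and 0.503% in senescent MSCs. How large a change the data leave room for differed between the genes. For EMD the 95% interval ran from -0.21 to 0.23 in young and from -0.20 to 0.25 in senescent MSCs, and for HMGB1 from -0.17 to 0.30 and from -0.16 to 0.30. For LMNB1 it ran from -0.81 to 0.63 and from -0.70 to 0.76, so a change of 1.5-fold in either direction lay within both intervals for this gene. With the replicate number as a block, the interval of LMNB1 in senescent MSCs was -0.37 to 0.46 and that of HMGB2 -0.22 to 0.33. The block was 1 effect per number shared by all 4 groups. The comparisons of GDF11 in senescent MSCs and of MmC without GDF11 passed the pairing check. Those of GDF11 in young MSCs and of MmC with GDF11 did not. LMNB1 in replicate 1 was at 0.528 times the mean of the other replicates in MmC-/GDF11- and 0.766 in MmC-/GDF11+. In MmC+/GDF11- and MmC+/GDF11+ it was at 0.386 and 0.402 times. The deviation was thus close in the senescent groups but not alike in all groups. The narrower interval rests on 1 effect shared by all 4 groups and is not used to leave out 1.5-fold (0.58 on the log2 scale). The intervals without the block do not use the pairing that the senescent comparison showed. No fit paired the senescent groups alone, so neither interval is that of a paired comparison of these groups. Without the block the intervals of HMGB2 were -0.55 to 0.67 and -0.57 to 0.66, and those of TMPO -0.50 to 0.56 and -0.49 to 0.57. The MmC effect itself differed between the arms with and without GDF11 by -0.05 (SUN2) to 0.12 (LMNB1) on the log2 scale, with an interval of -0.90 to 1.15 for LMNB1.

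**Figure D2:**
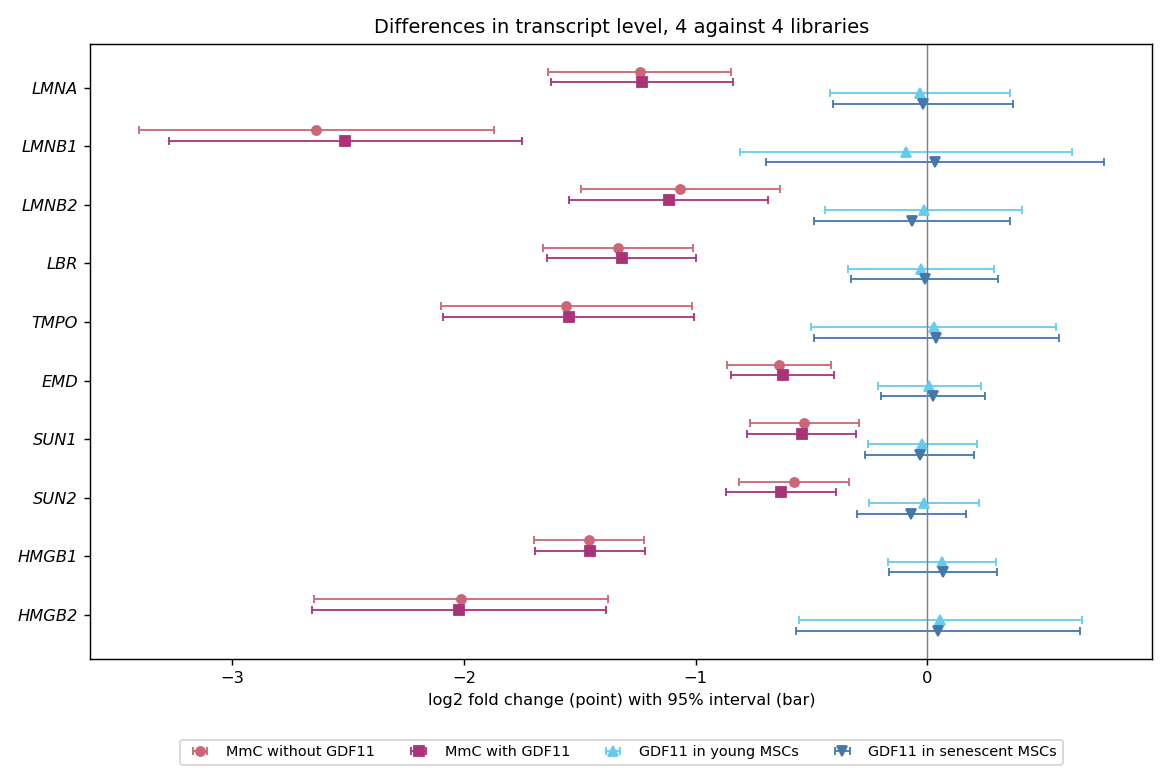
Log2 fold changes (points) with 95% intervals (bars) of the 10 genes from edgeR's quasi-likelihood fit, for MmC without and with GDF11 and for GDF11 in young and senescent MSCs, each 4 against 4 libraries. All intervals for MmC lie below 0 (the highest upper bound is -0.30, for SUN1) and all intervals for GDF11 include 0, with LMNB1 and HMGB2 the widest.

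Paired by replicate number, each gene was lower after MmC in 4 of 4 same-numbered pairs, with and without GDF11. This follows from the lack of overlap between the groups given above and is no further support. The number did not pass the pairing check for MmC with GDF11 or for GDF11 in young MSCs. For LMNB1 these differences in log2 CPM ranged from -3.02 to -2.17 without and from -3.29 to -1.85 with GDF11. For SUN2 they ranged from -0.89 to -0.19 and from -0.83 to -0.30. The GDF11 differences had both signs among the 4 pairs for all 10 genes, in young and in senescent MSCs.

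Proliferation genes fell beside these transcripts. Of 12 proliferation markers 10 were called lower after MmC without GDF11 (background 22.4%) and 2 were not called (PCNA, log2 fold change -0.018, and MCM2, -0.67), and the same numbers held with GDF11 (background 23.3%). Their summed level was 645 to 1380.0 CPM in young MSCs without and 1005 to 1268 with GDF11, and 255 to 419 in senescent MSCs without and 257 to 442 with it. CCNB1, the cyclin that drives entry into mitosis, had a log2 fold change of -2.68 ± 0.291 (edgeR adjusted p = 4.89e-06) and TOP2A, the topoisomerase of dividing cells, one of -1.85 ± 0.315 (edgeR adjusted p = 0.000252). MKI67, which encodes the Ki-67 antigen, had -1.70 ± 0.386 (edgeR adjusted p = 0.00232) and CDK1, the mitotic kinase, -1.42 ± 0.358 (edgeR adjusted p = 0.00487). The part of dividing cells in the changes of the lamina and HMGB genes was not tested.

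Within groups the genes did not vary alike. Deviations of log2 CPM from the group means were correlated over the 16 libraries as a description, and the points share the replicate number and library preparation. LMNB1, LMNB2, LBR, TMPO and HMGB2, grouped after their values had been seen, had r of 0.67 to 0.97 with one another and of 0.63 to 0.98 with MKI67, TOP2A, CDK1 and CCNB1. LMNA, SUN1 and SUN2 had r of -0.84 to -0.23 with the same 4 markers. These values rest in large part on the libraries numbered 1. In MmC+/GDF11- replicate 1 LMNB1 was at 0.386, HMGB2 at 0.440, TMPO at 0.543 and MKI67 at 0.393 times the mean of the other replicates, while LMNA was at 1.47, SUN2 at 1.26 and SUN1 at 1.23 times it. In MmC+/GDF11+ replicate 1 the ratios were 0.402, 0.452, 0.528 and 0.297, and 1.46, 1.29 and 1.18. Over the 12 libraries left without replicate 1, a choice made after seeing the data, r ranged from -0.29 to 0.91 among the first 5 genes and from -0.57 to 0.92 with the markers, and from -0.88 to 0.81 for LMNA, SUN1 and SUN2 with the markers. LMNB1 with TMPO (0.97 over 16 and 0.91 over 12 libraries), LMNB1 with LMNB2 (0.94 and 0.89), TMPO with TOP2A (0.98 and 0.92) and LMNA with MKI67 (-0.84 and -0.88) stayed close, while LMNB1 with HMGB2 went from 0.91 to 0.02.

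**Figure D3:**
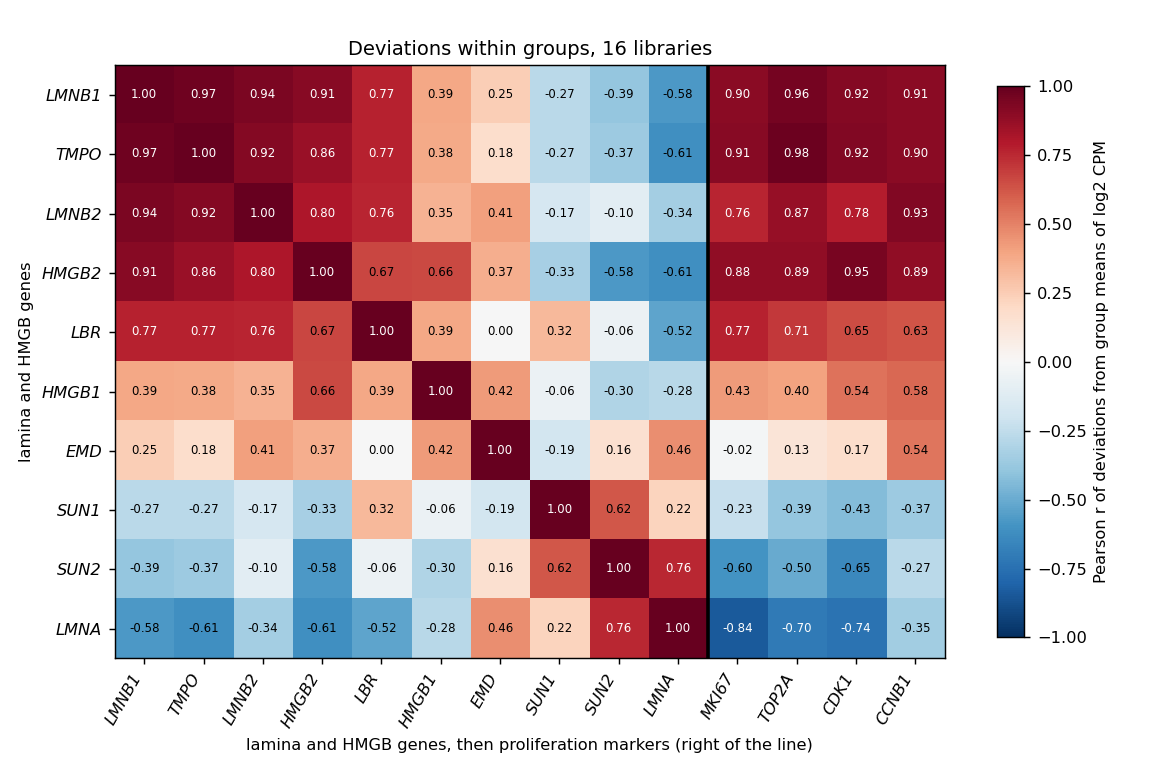
Pearson r of deviations of log2 CPM from the group means over 16 libraries, for the 10 genes (rows and columns) and 4 proliferation markers (columns right of the line). Red is positive and blue negative. LMNB1, TMPO, LMNB2, HMGB2 and LBR form a red block that extends to the markers, and LMNA, SUN2 and SUN1 are blue against the markers, a pattern that includes the libraries numbered 1.

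The genes most like each member over the 16 libraries were ranked among 10958 protein-coding genes by Pearson r of log2 CPM, which includes the difference between MmC groups. For LMNB1 they were SHCBP1, FAM83D and PHF19 (highest r 0.996), for LMNB2 TONSL, NCAPD2 and PHF19 (highest 0.996) and for LMNA SLC2A4RG, CUEDC1 and APH1A (highest 0.994). PHF19 was thus near both B-type lamins. For TMPO they were KIF23, FANCD2 and TOP2A (highest 0.997) and for EMD NDUFA9, MRPL28 and PPP1R14B (highest 0.990). For SUN1 they were PDGFRA, SIM1 and RUNX2 (highest 0.984), for SUN2 ZNF512B, MED22 and CNTROB (highest 0.987), for HMGB1 HAUS1, FAM136A and ACAT2 (highest 0.993) and for HMGB2 NUF2, HMMR and CDCA3 (highest 0.996). Between 366 (SUN1) and 1175 (HMGB1) genes reached r of at least 0.9, so a high r was common in these data.

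Of 19 further genes of the LINC complex and inner nuclear membrane 16 were tested, and after MmC without GDF11 7 were called higher (background 22.9%), 3 lower (background 22.4%, so a share near that of all genes) and 6 not called, with a median log2 fold change of 0.35 (all genes -0.01). SYNE1 and SYNE3 encode nesprins, partners of the SUN proteins, and moved in opposite directions. From young to senescent cells SYNE1 went from 52.2 ± 10.9 to 90.7 ± 10.0 CPM (log2 fold change 0.80 ± 0.144; edgeR adjusted p = 0.000336), and SYNE3 from 50.7 ± 7.26 to 24.0 ± 2.51 (-1.08 ± 0.114; edgeR adjusted p = 2.53e-06). SPAG4, a further SUN-domain gene, was higher at a low level, with 2.91 ± 0.880 and 6.40 ± 1.02 CPM (1.13 ± 0.255; edgeR adjusted p = 0.00195). BANF1, which bridges DNA and LEM-domain proteins such as emerin, was lower, with 143 ± 29.0 and 77.9 ± 7.08 CPM (-0.87 ± 0.122; edgeR adjusted p = 3.69e-05). The same numbers were called in each direction with GDF11 (background 23.4% higher and 23.3% lower). Of 6 genes for the prenylation and processing of lamins, only NARF was called, and lower (background 22.4%), with 44.3 ± 9.12 and 33.7 ± 2.31 CPM (-0.40 ± 0.142; edgeR adjusted p = 0.0318), and the median was 0.0039.

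Other high-mobility-group genes were mostly lower. Of 8 tested, 6 were called lower and none higher without GDF11 (background 22.4% lower; median -0.70, against -0.01 over all genes), and 5 lower with GDF11 (background 23.3%). HMGN2, a nucleosome-binding protein, went from 344 ± 84.2 to 103 ± 7.31 CPM (-1.74 ± 0.150; edgeR adjusted p = 4.05e-07), and HMGB3, the third HMGB protein, from 32.8 ± 5.31 to 11.1 ± 1.56 (-1.56 ± 0.147; edgeR adjusted p = 8.21e-07). The called genes with the smallest falls were HMGN4 (-0.57 ± 0.0838) and HMGN5 (-0.48 ± 0.127). HMGN5 was not called with GDF11, at -0.29 ± 0.127, and the interaction was not called for any gene. Several of these genes have processed copies in the genome, whose share of the counts was not measured here. Of the receptors and export factors of HMGB1, only 3 of 7 were tested: XPO1, a nuclear exporter, was lower (-0.39 ± 0.113; edgeR adjusted p = 0.0105), HAVCR2 was higher at levels of 0.0875 ± 0.0501 and 0.265 ± 0.107 CPM, and TLR4 was not called (0.25 ± 0.109; edgeR adjusted p = 0.0714).

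Of 30 nuclear pore genes, 2 were called higher and 9 lower, both without GDF11 (background 22.9% higher and 22.4% lower) and with it (23.4% and 23.3%). The lower share was thus near that of all genes, and their median was -0.20 without it. NUP37 (-0.94 ± 0.104; edgeR adjusted p = 4.10e-06) and NUP85 (-0.74 ± 0.130; edgeR adjusted p = 0.000264), both of the outer ring of the pore, had the lowest called values. RANBP2, on its cytoplasmic filaments, was higher (0.46 ± 0.155; edgeR adjusted p = 0.0246), as was POM121C (0.33 ± 0.126; edgeR adjusted p = 0.0424), whose reads are hard to tell from those of its near-copy POM121. Of 14 heterochromatin genes tested, 8 were called lower without (background 22.4%) and 9 with GDF11 (background 23.3%), and none was called higher (background 22.9% and 23.4%; median -0.48 without GDF11). SUV39H1, a histone H3 lysine 9 methyltransferase, went from 19.98 ± 5.99 to 10.4 ± 3.05 CPM (-0.94 ± 0.255; edgeR adjusted p = 0.00696), and CBX1, a heterochromatin protein 1 family member, from 102 ± 7.55 to 56.7 ± 2.61 (-0.85 ± 0.0711; edgeR adjusted p = 2.99e-07). EHMT1 (-0.36 ± 0.0900) and HDAC3 (-0.32 ± 0.112) had the smallest called falls. No gene of these lists was called for GDF11 by edgeR's test, in young or in senescent MSCs.

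**Figure D4:**
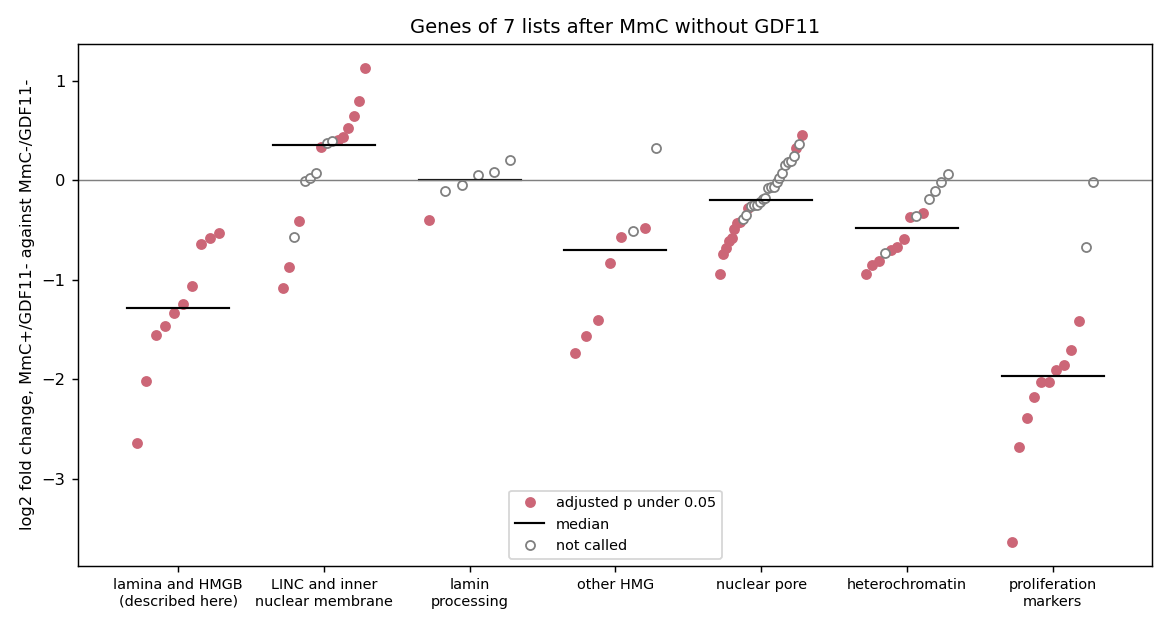
Log2 fold changes (vertical axis) of the tested genes of 7 lists after MmC without GDF11, from edgeR's fit. Filled points have an adjusted p under 0.05, open points do not, and lines are medians. All 10 lamina and HMGB genes are filled and below 0, with a median of -1.29, while the other genes of the LINC complex and inner membrane have a median of 0.35, and the proliferation markers one of -1.96.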

How the data were processed

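Poly(A)-enriched RNA of ASC52telo MSCs was sequenced in 16 libraries, 4 per group, with group and replicate read from each sample's title. Alignment by the authors used HISAT2 2.2.1 and the hg38 build, reads were counted on GENCODE V38 genes by featureCounts 2.0.1, and the raw counts per gene were deposited. Strand setting and treatment of reads with several alignments are not given in the sources used here. CPM values and every test derive from these deposited counts and were made here, with total counts of 71275337 to 144204979 per library.

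The analysis used edgeR 4.0.16 in R 4.3.3: filterByExpr (minimum count 10, minimum total 15), TMM scaling and a robust quasi-likelihood fit of 1 mean per group to all 16 libraries (12 residual degrees of freedom). P-values were adjusted by the Benjamini-Hochberg method over 19103 genes, with a threshold of 0.05. Standard errors were taken from the log2 fold change and its F value, and log2 CPM used a prior count of 2. The steps were run on simulated counts that held no deviations shared by same-numbered libraries. The check required recovery of a set MmC change and does not bear on the GDF11 results. Symbols and positions came from GENCODE v44, which held 60463 of the 60649 identifiers, and repeated stretches were found with blastn 2.17.0. The rule for the 10 genes used no measured value, but the 10 and the gene lists were proposed with earlier results of these data known. Named genes are the 10, in 6 lists of related genes the 2 highest and 2 lowest log2 fold changes for MmC without GDF11 among called genes, fixed marker genes, the 3 protein-coding genes most like each of the 10 (mean log2 CPM of at least 1) and genes that overlap or copy one of them. The genes most like LBR are not reported here. PCNA, MCM2 and TLR4 were named after their values were seen.

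Same-numbered libraries were checked for shared deviations from their group means over all tested genes. In the comparison of MmC without GDF11 every pair reached at least 0.113, and in that of GDF11 in senescent MSCs at least 0.448, so the number was taken to pair these libraries, from the data alone. The weakest pairs of MmC with GDF11 (0.0293) and of GDF11 in young MSCs (0.0982) were under 0.1, and there it was not. The main fit used no pairing in any comparison, and the number entered only as a block among the alternatives. Alternatives were RLE scaling, no filter or a stricter one (10 counts or more in each library), a fit to the compared groups alone, the replicate number as a block, limma-voom (limma 3.58.1), DESeq2 1.42.0, leaving out each library, and leaving out the 4 libraries numbered 1.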

Additional observations from a re-analysis of the deposited data

Results flagged for a closer look

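In 6 of the 40 sets of 4 replicates (10 genes in 4 groups), 1 library lay so far from the other 3 that its gap to the nearest, as a share of the range, exceeded Dixon's 95% critical value, which chance does in about 1 of 20 sets. Replicate 1 was the library apart in 4 of the 6.

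TMPO was at 23.0 CPM in MmC+/GDF11- replicate 1 (others 41.5 to 44.2) and at 23.1 CPM in MmC+/GDF11+ replicate 1 (others 41.5 to 45.3). LMNB2 was at 102 CPM in MmC+/GDF11+ replicate 1, where the others had 151 to 155, and HMGB2 was at 90.5 CPM in MmC-/GDF11- replicate 1, where the others had 160 to 165. LMNA was at 2660.0 CPM in MmC-/GDF11- replicate 2 (others 1949 to 1991). SUN1 was at 127 CPM in MmC-/GDF11+ replicate 4 (others 103 to 107). All of these genes kept their calls after MmC when the library was left out.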

How the results depend on the processing

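All 10 genes stayed called lower after MmC, without and with GDF11, under all 24 alternatives run for each, and no log2 fold change moved by over 1.5 times as a fold. LMNB1 ranged from -2.81 to -2.38 without and from -2.62 to -2.27 with GDF11 over these alternatives, and SUN1 from -0.64 to -0.47 and from -0.64 to -0.46. The number of all genes called for MmC without GDF11 was 8655, 7602 to 9159 with a library left out, 7143 with only the libraries compared and 11066 with the replicate number as a block. The replicate block changed no call of the 10 genes. For MmC with GDF11 the number was 8926, 7742 to 9405 with a library left out and 11267 with the block. For GDF11 in young MSCs the count of 0 genes became 1 under DESeq2 and 0 to 1 with a library left out (1 without MmC-/GDF11+ replicate 2).

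No GDF11 or interaction effect of the 10 genes was called under any alternative, and of their signs only that of HMGB1 in senescent MSCs held under all 24 (0.027 to 0.12). In young MSCs LMNB2 was 0.0048 with the replicate block and 0.00848 with limma-voom, and without the 4 libraries numbered 1 TMPO was -0.12, EMD -0.017, HMGB1 -0.015 and HMGB2 -0.037. In senescent MSCs LBR was 0.017 without these 4. The interaction was 0.0056 for HMGB2 with no filter, -0.0041 for LBR and -0.045 for TMPO with the block, -0.014 for TMPO and -0.00261 for HMGB1 with limma-voom, and, without the 4 libraries numbered 1, -0.011 for LMNA, 0.021 for LMNB2, 0.00044 for SUN1 and 0.079 for HMGB2. With 1 library left out in turn, the log2 fold change for GDF11 in young MSCs ran from -0.16 to 0.091 for LMNA, from -0.27 to 0.12 for LMNB1, from -0.16 to 0.15 for LMNB2, from -0.13 to 0.12 for LBR, from -0.13 to 0.18 for TMPO, from -0.071 to 0.11 for EMD, from -0.093 to 0.014 for SUN1, from -0.057 to 0.045 for SUN2, from -0.026 to 0.13 for HMGB1 and from -0.11 to 0.13 for HMGB2. In senescent MSCs it ran from -0.17 to 0.14 for LMNA, from -0.20 to 0.27 for LMNB1, from -0.19 to 0.065 for LMNB2, from -0.093 to 0.072 for LBR, from -0.13 to 0.22 for TMPO, from -0.011 to 0.069 for EMD, from -0.093 to 0.052 for SUN1, from -0.16 to 0.027 for SUN2 and from -0.17 to 0.26 for HMGB2. The interaction ran from -0.15 to 0.17 for LMNA, from -0.12 to 0.35 for LMNB1, from -0.21 to 0.097 for LMNB2, from -0.13 to 0.12 for LBR, from -0.17 to 0.19 for TMPO, from -0.079 to 0.10 for EMD, from -0.075 to 0.069 for SUN1, from -0.15 to 0.037 for SUN2, from -0.062 to 0.099 for HMGB1 and from -0.23 to 0.20 for HMGB2. The cause of these sign changes was not tested, and each value lies within the 95% interval of the effect it belongs to.

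The widest GDF11 intervals, without the block, belonged to LMNB1 and HMGB2. The block narrowed them, but it assumes a replicate effect that is the same in all groups. GDF11 was given at 1 dose and read at 1 time in 1 line.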
